A study of Mus musculus with 3 samples.

Results

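Heavy chain variable gene use was examined in spleen B cells of mice given R848 with or without IL-4. The members were all 185 of 32285 gene rows whose name starts with Ighv, the germline genes that encode the first part of the antibody heavy chain. They span 2437 kb of chromosome 12 in GRCm38 (mm10), and 113 are annotated as IG_V_gene, 70 as IG_V_pseudogene and 2 as IG_LV_gene. Use was measured cell by cell: a cell was assigned an Ighv gene when that gene had at least 3 UMIs (unique molecular identifiers, one per captured RNA molecule) and at least 80% of the Ighv UMIs of the cell. Of 33776 cells in 9 B cell classes, 23600 were assigned a gene, and 78 of the 185 members held no cell.

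A heavy chain gene is built in a developing B cell by joining 1 V, 1 D and 1 J segment, so each B cell normally reads out a single V gene and passes it to its daughters. The V segment carries the antigen-contact loops CDR1 and CDR2, while CDR3 is made at the joint. Marginal zone cells and B-1 cells are known for V genes that recognise common microbial and self lipids, germinal center cells mutate their V genes, and plasmablasts secrete the resulting antibody. A V gene that takes a large share of a small population can mark the progeny of few founders, but 2 cells with the same V gene need not be related.

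All mice were female, wild-type BXD2, a recombinant inbred strain from C57BL/6J and DBA/2J parents that is used as a model of lupus. The treated group received 5 µg of IL-4 bound to 25 µg of an antibody against it, which prolongs its action, and the control group 25 µg of the antibody alone. Every mouse then received R848, an agonist of the RNA sensor TLR7, 2 hours later at 40 µg per 20 g of body weight. A second round followed 2 days on and spleens were collected 2 days after that, while the age of the mice is not given in the sources used here. The series describes 3 mice per group. B cells enriched by negative selection were stained with hashtag antibodies and pooled into 3 single-cell 5′ libraries (sets 1, 2 and 3), each holding both treatments. The labels do not say how mice fall into sets, so errors and p-values measure the spread between sets, which may be technical. Values are given per set and treatment (6 sums per class), in the order R848 sets 1, 2 and 3, then IL-4+R848 sets 1, 2 and 3. The reads were counted against a C57BL/6J reference, and which parental Igh region BXD2 carries is not given in the sources used here.

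The sets held 14519, 11389 and 14222 barcodes with between 96866964 and 107244246 gene UMIs, and 35102 cells were kept. Between 340 and 381 barcodes of a set were also present in another set. Cd79a, which encodes a B cell receptor chain, had a UMI in 98.9% of kept cells and Cd3e of T cells in 0.154%. Clusters were built without Ighv genes and named from marker genes. They were follicular-like, marginal zone-like, transitional-like, activated-like, cycling-like, germinal center-like and plasmablast-like classes, a Rag1 cluster and a Zbtb32 cluster. Follicular-like cells of the 2 treatments came mostly from different clusters (cluster 0 held 4.66% IL-4+R848 cells, clusters 1, 2 and 5 held 98.3%, 72.2% and 99.9%), which touches every value compared with that class. All 9 markers of the plasmablast list and all 9 of the germinal center list were raised in the clusters of those names.

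Sequences are shown for the V genes on which the results turn. Ighv1-81 and Ighv1-26 led follicular-like and plasmablast-like cells. Ighv6-3 had a higher share in transitional-like cells and Ighv11-2 in the Zbtb32 cluster than in follicular-like cells. Ighv12-3 shares the known antigen of Ighv11-2, and Ighv9-2, Ighv5-17 and Ighv1-47 met the rule for expanded genes below. Each line runs 5′ to 3′ on the minus strand of chromosome 12 from the conserved cysteine codon to the cysteine codon before CDR3, from GENCODE vM21 transcripts on GRCm38. The capitals mark the codons between the first cysteine and the conserved tryptophan, a stretch that holds CDR1.
Ighv1-81: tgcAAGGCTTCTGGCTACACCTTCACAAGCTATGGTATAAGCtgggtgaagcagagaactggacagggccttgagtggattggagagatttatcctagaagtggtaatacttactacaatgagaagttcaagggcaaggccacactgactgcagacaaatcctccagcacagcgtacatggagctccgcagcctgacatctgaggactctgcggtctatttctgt
Ighv1-26: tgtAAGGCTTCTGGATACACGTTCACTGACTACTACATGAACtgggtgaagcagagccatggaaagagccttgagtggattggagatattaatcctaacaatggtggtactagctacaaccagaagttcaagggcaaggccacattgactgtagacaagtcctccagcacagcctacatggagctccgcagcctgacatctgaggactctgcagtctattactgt
Ighv6-3: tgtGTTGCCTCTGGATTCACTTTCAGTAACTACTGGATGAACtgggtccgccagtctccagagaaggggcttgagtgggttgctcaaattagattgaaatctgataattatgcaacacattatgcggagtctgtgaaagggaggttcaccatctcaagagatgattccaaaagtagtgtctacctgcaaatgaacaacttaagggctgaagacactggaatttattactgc
Ighv11-2: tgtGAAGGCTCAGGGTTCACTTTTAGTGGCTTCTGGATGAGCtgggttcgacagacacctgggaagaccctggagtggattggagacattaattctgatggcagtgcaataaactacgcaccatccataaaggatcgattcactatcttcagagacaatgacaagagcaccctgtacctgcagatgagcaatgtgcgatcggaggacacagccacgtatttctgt
Ighv12-3: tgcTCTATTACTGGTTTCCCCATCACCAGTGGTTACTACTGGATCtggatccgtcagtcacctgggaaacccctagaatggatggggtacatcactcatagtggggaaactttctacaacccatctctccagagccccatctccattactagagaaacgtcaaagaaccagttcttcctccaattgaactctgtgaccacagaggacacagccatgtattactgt
Ighv9-2: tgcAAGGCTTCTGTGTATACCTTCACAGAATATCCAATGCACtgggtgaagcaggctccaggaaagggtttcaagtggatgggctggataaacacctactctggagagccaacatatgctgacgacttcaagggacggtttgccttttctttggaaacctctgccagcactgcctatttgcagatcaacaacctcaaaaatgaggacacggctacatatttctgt
Ighv5-17: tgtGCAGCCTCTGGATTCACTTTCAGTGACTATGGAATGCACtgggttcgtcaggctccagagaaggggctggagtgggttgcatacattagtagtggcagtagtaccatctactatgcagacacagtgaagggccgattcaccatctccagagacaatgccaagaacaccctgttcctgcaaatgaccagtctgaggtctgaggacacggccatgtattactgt
Ighv1-47: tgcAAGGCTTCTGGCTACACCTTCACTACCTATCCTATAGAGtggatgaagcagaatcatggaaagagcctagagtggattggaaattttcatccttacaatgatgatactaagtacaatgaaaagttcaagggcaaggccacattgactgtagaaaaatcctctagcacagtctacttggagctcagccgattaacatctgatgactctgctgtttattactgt
The genes lie at chr12:115920279-115920712 (Ighv1-81), chr12:114788372-114788805 (Ighv1-26), chr12:114391712-114392169 (Ighv6-3), chr12:114048241-114048812 (Ighv11-2), chr12:114366521-114366954 (Ighv12-3), chr12:114109001-114109430 (Ighv9-2), chr12:113859149-113859670 (Ighv5-17) and chr12:114991108-114991580 (Ighv1-47). Over these stretches Ighv1-81 and Ighv1-26, both of family 1, were 84.9% identical, and Ighv11-2 was 61.3% identical to Ighv12-3 although both are known from B-1 cells. Members of a family can be so alike that counting splits their reads: 27 of the 113 IG_V_gene members had another member at 95% identity or more over the whole transcript, with a median nearest identity of 91.7%. Counts of such genes are uncertain between the neighbours.

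The depth of the antibody RNA differed between classes. Plasmablast-like cells had a median of 1555 Ighv UMIs and 95.8% of them were assigned a gene. Germinal center-like cells had a median of 24 and follicular-like cells of 13, and 65.4% and 67.5% were assigned. NK cells make no antibody and show the background. Among 160 NK cell-like cells 41.3% had at least 1 Ighv UMI but 6.25% (10 cells, 95% exact interval 3.04% to 11.2%) were assigned a gene. The background differed by set. An Ighv UMI was present in 57.1% (R848, 7 cells) and 89.5% (IL-4+R848, 19 cells) of NK cell-like cells in set 2. In set 3 it was 11.8% (17 cells) and 23.2% (56 cells). Follicular-like cells were assigned a gene in 55.6% and 63.3% in set 2 and in 70.2% and 72.7% in set 3. The effect of this on the shares was not tested. In follicular-like cells 98.7% had at least 1 Ighv UMI, and the median depths were 7139 UMIs in NK cell-like and 5141 in follicular-like cells. Since 1 UMI can be background, only assigned cells are counted below. A total of 3638 cells held 2 genes of at least 3 UMIs. The commonest such combination was Ighv1-26 with Ighv2-2 in 15 cells, and among the first 4 only Ighv1-18 with Ighv1-26 (11 cells) joined near-identical genes, at 96.9%. The 100 IG_V_gene members in use held 99.8% of assigned cells and 7 pseudogenes held 51 cells (0.216%).

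Follicular-like cells, the resting recirculating B cells of the spleen, used Ighv1-81 most. It was the gene of 7.66%, 7.84% and 6.80% of assigned cells in the R848 sums and of 8.09%, 6.03% and 4.86% in the IL-4+R848 sums, a mean of 6.88% ± 1.25 (SD, n = 6 sums). The treatments overlapped. Ighv9-3 followed at 4.64% ± 0.94, Ighv3-6 at 4.28% ± 0.67 and Ighv1-26 at 4.06% ± 0.59. They start 568 kb (Ighv9-3), 715 kb (Ighv3-6), 1215 kb (Ighv1-26) and 2347 kb (Ighv1-81) from the member nearest to the D segments.

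**Figure D1:**
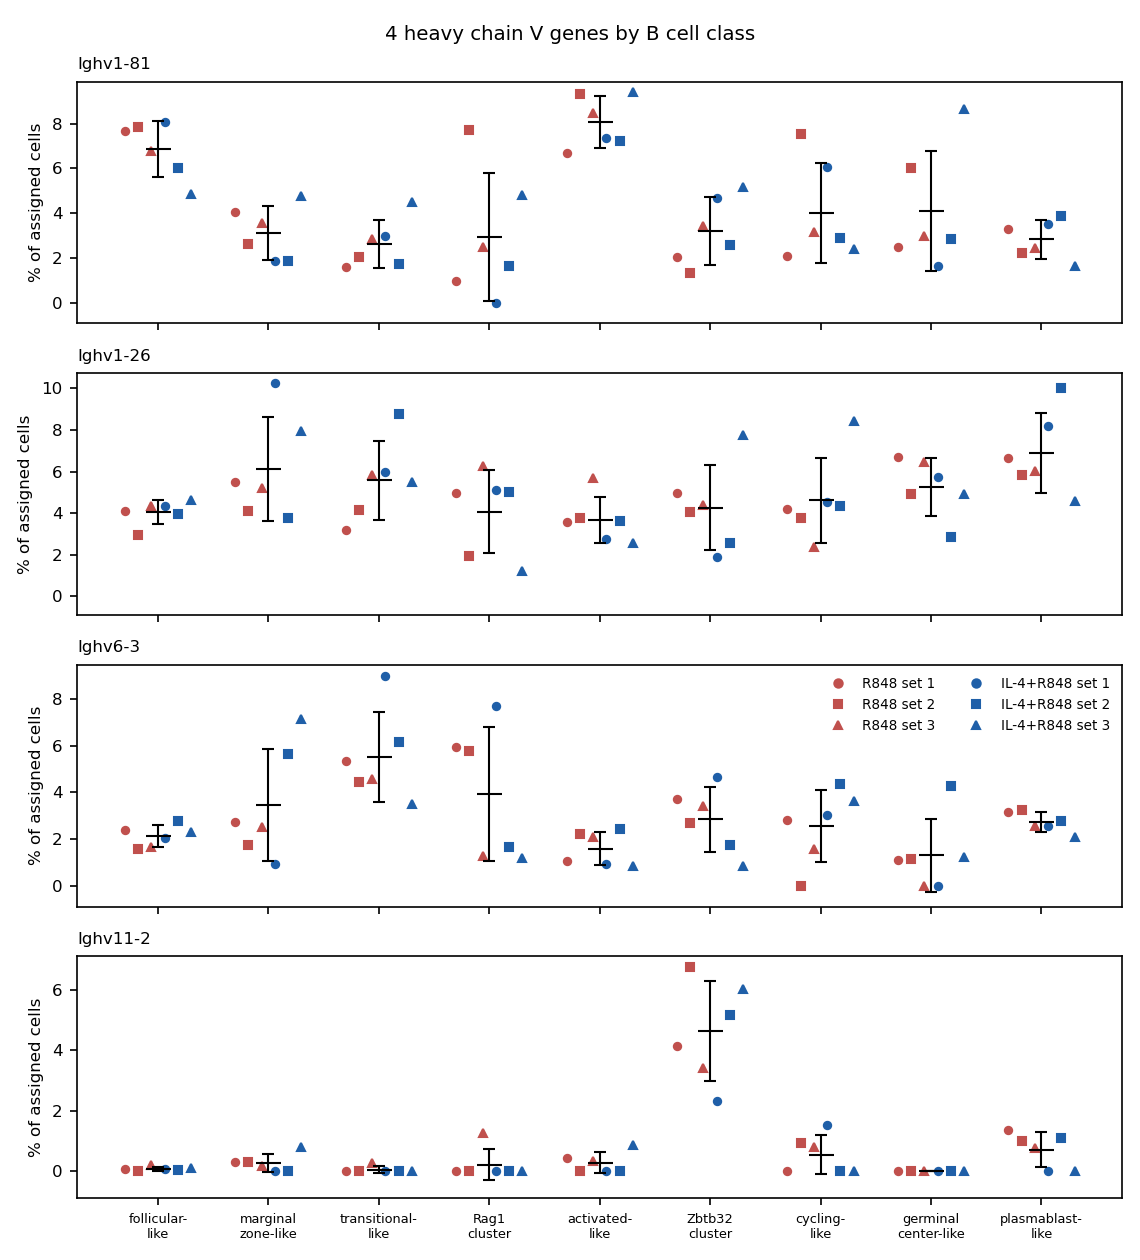
Percent of assigned cells that used Ighv1-81, Ighv1-26, Ighv6-3 or Ighv11-2 (vertical axes) in the 9 B cell classes. Points are the 6 sums, coloured by treatment and shaped by set, and black bars are mean ± SD of the 6. Ighv1-81 is high in follicular-like and activated-like cells, Ighv6-3 has a mean of 5.50% in transitional-like cells, and Ighv11-2 stands out in the Zbtb32 cluster at 4.64%.

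Ighv1-81 was used less in several other classes. Its mean share was 2.63% ± 1.08 in transitional-like, 3.13% ± 1.19 in marginal zone-like and 2.84% ± 0.86 in plasmablast-like cells, below the follicular-like share of the same sum in 6 of 6 sums each. In the Zbtb32 cluster it was 3.21% ± 1.50, below in 5 of 6 sums. In activated-like cells it was 8.07% ± 1.15, above in 4 sums and below in 2. Classes were also compared through their summed UMIs, with edgeR's quasi-likelihood test blocked on the 6 sums and Benjamini-Hochberg (BH) adjustment over all genes. By that test Ighv1-81 fell against follicular-like cells in marginal zone-like (log2 change -1.18 ± 0.17 SE, adjusted p = 0.000183), germinal center-like (-1.28 ± 0.20, adjusted p = 0.000199) and cycling-like cells (-1.19 ± 0.21, adjusted p = 0.000607). The median member was also lower there, at -0.30, -0.60 and -0.55. By cells, Ighv1-81 held 9 of 357, 16 of 265 and 7 of 233 germinal center-like cells in R848 sums. In IL-4+R848 sums it held 2 of 122, 2 of 70 and 7 of 81, the last a higher share than in follicular-like cells. In plasmablast-like cells its summed UMIs rose, and only per Ighv UMI was it lower.

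Plasmablast-like cells used Ighv1-26 most. Its share was 6.64%, 5.85% and 6.01% in the R848 sums and 8.20%, 10.0% and 4.58% in the IL-4+R848 sums, a mean of 6.88% ± 1.93 (SD, n = 6). It was above the follicular-like share of the same sum in 5 of 6 sums, all except IL-4+R848 set 3, where follicular-like cells were at 4.63%. The treatments overlapped. Ighv1-53 was above in 6 of 6 sums, at 3.26% ± 0.75 against 1.51%. Ighv9-3 (3.29% ± 0.51), Ighv1-81 and Ighv8-8 (1.68% ± 0.93 against 3.41%) were below in 6 of 6.

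In summed UMIs 91 of 106 members tested rose in plasmablast-like against follicular-like cells and 1 fell, where 79.9% of all 10820 genes tested were called, 38.4% as risen and 41.5% as fallen. The members' median log2 change was 5.24, against -0.05 over all genes. With library size taken from Ighv UMIs alone, an alternative added after seeing the data that measures each gene's part of the Ighv RNA, Ighv1-26 was higher by 0.77 ± 0.09 (adjusted p = 7.58e-06) and Ighv1-53 by 0.60 ± 0.18 (adjusted p = 0.00804). Ighv8-8 was lower by this measure (-0.83 ± 0.25, adjusted p = 0.00722), as was Ighv1-81 (-0.39 ± 0.16, adjusted p = 0.0357). The median member was at -0.75 by this measure, and 8 rose and 36 fell.

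**Figure D2:**
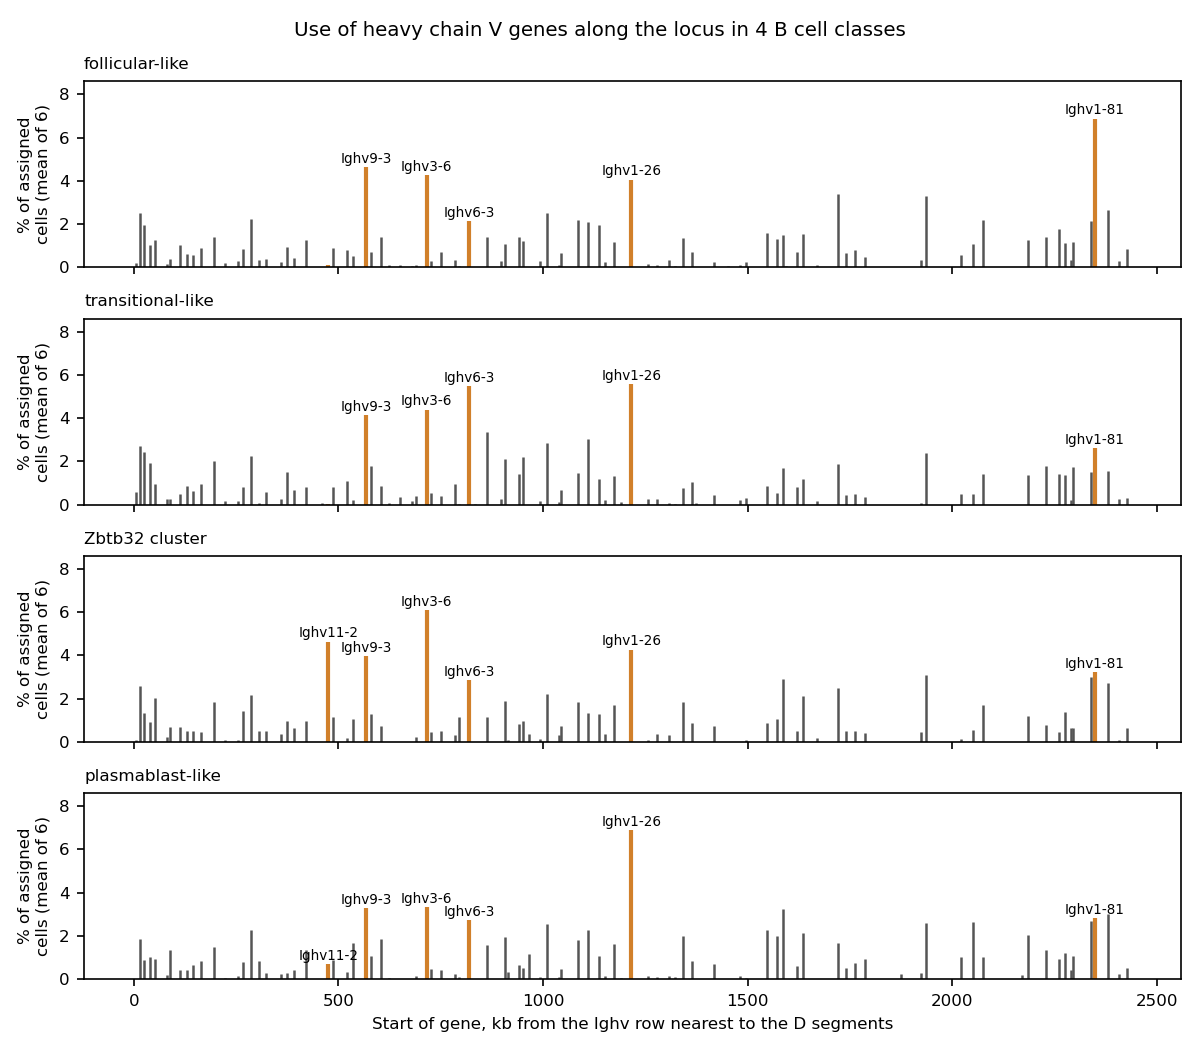
Mean percent of assigned cells over 6 sums (vertical axes) for each Ighv gene, placed by its start in kb from the member nearest to the D segments, in 4 classes. Orange bars mark 6 named genes. The bar of Ighv1-81 at the far end is tall in follicular-like cells (6.88%) and shorter in the other 3 classes, and Ighv1-26 leads in plasmablast-like cells (6.88%).

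The share of cells by position of their gene on the locus also differed between classes. The members were divided into segments of equal length (812 kb) by distance from the D segments, which V genes must reach during recombination. The distal segment held 34.3% ± 0.90 of follicular-like cells. It held 23.4% ± 2.18 of transitional-like cells, 24.2% ± 3.68 of the Rag1 cluster, 26.8% ± 3.21 of the Zbtb32 cluster, 28.5% ± 4.21 of germinal center-like and 30.1% ± 1.77 of marginal zone-like cells. Each of these 5 was below follicular-like in 6 of 6 sums. The proximal segment was above follicular-like (34.3% ± 1.50) in 6 of 6 sums in the Rag1 cluster (42.5% ± 6.16) and the Zbtb32 cluster (41.3% ± 3.88). The middle segment was above follicular-like (31.4% ± 2.04) in 6 of 6 sums in plasmablast-like (38.4% ± 2.96), marginal zone-like (36.8% ± 3.29) and transitional-like cells (38.9% ± 5.23). Single genes weigh in these shares. The distal segment holds Ighv1-81 (2347 kb), the gene of 4.86% to 8.09% of follicular-like cells, with lower shares in transitional-like and marginal zone-like cells. The proximal segment holds Ighv11-2 (475 kb), whose family took 4.64% of the Zbtb32 cluster against 0.0852% of follicular-like cells. Segment shares without these genes were not examined.

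Family 1, the largest with 93 members, took 53.7% ± 1.41 of follicular-like cells. It was lower in 6 of 6 sums in transitional-like cells (45.3% ± 1.93), the Zbtb32 cluster (47.4% ± 3.33) and the Rag1 cluster (45.0% ± 5.24), and higher in 6 of 6 in plasmablast-like cells (59.0% ± 3.47). Family 6 (7 members) took 8.91% ± 2.19 of transitional-like cells against 3.51% ± 0.73 of follicular-like cells, higher in 6 of 6 sums. In germinal center-like cells it took 1.59% ± 1.45, lower in 6 of 6. Family 5 (22 members), which lies near the D segments, took 7.63% ± 0.68 of plasmablast-like against 8.66% ± 0.44 of follicular-like cells, lower in 6 of 6.

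Transitional-like cells, recent arrivals from the bone marrow, were led by Ighv1-26 (5.58% ± 1.90) and Ighv6-3. Ighv6-3 was the gene of 5.35%, 4.45% and 4.56% of assigned R848 cells (30, 15 and 32 cells) and of 9.0%, 6.14% and 3.50% of IL-4+R848 cells (9, 7 and 7 cells). The mean was 5.50% ± 1.93 against 2.12% ± 0.47 in follicular-like cells, with every sum higher. In summed UMIs Ighv6-3 rose by 1.57 ± 0.12 on the log2 scale (adjusted p = 2.6e-07) and per Ighv UMI by 1.10 ± 0.12 (adjusted p = 1.97e-06). Ighv1-26 rose by 0.77 ± 0.08 (adjusted p = 2.39e-06). Of 94 members tested, 37 rose and 6 fell, with 33.6% of all genes called, 16.1% as risen and 17.5% as fallen. The members' median was 0.55, and 0.08 per Ighv UMI, where 19 rose and 21 fell, so that the excess of risen members was not kept. Ighv5-2, the much-studied 81X gene near the D segments that is used early in ontogeny, rose by 1.19 ± 0.25 (adjusted p = 0.0019). It had only 1, 2 and 1 assigned cells in R848 and 2, 0 and 1 in IL-4+R848 sums. Ighv7-1, of the S107 family known from phosphorylcholine antibodies, rose by 1.36 ± 0.33 (adjusted p = 0.00501), which became 0.87 with an adjusted p of 0.0918 without set 3 and 0.64 with 0.539 in DESeq2.

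The Rag1 cluster expressed the recombinase gene that builds V genes. It joined 2 clusters, led by Sox4, Rag1 and Il7r and by the surrogate light chain genes Igll1 and Vpreb1. It held 415 assigned cells, between 39 and 101 per sum, so its shares are coarse. Family 5 took 12.8% ± 3.51 against 8.66% of follicular-like cells, higher in 5 of 6 sums. Of 88 members tested, 1 rose and 29 fell, with 46.6% of all genes called, 23.1% as risen and 23.4% as fallen, and the members' median was -0.50. Per Ighv UMI 10 rose and 14 fell. Ighv7-1 had a log2 change of 0.97 ± 0.44 (adjusted p = 0.0854) and Ighv5-2 of 0.62 ± 0.32 (adjusted p = 0.129). Per Ighv UMI they rose by 1.45 ± 0.38 (Ighv7-1, adjusted p = 0.00237) and 1.13 ± 0.31 (Ighv5-2, adjusted p = 0.00345). Few cells stood behind both. Ighv7-1 had 3, 4 and 26 UMIs in R848 and 36, 14 and 12 in IL-4+R848 sums, with 0, 0 and 0 and 1, 0 and 1 assigned cells. Single cells held 34 of the 36 and 11 of the 12. Ighv5-2 had 2, 0 and 1 and 0, 0 and 2 assigned cells. Single cells held 19 of its 46 UMIs in R848 set 1 and 19 of 38 in IL-4+R848 set 3.

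Marginal zone-like cells, the blood-facing B cells of the spleen, were led by Ighv1-26 (6.13% ± 2.51), Ighv3-6 (5.24% ± 1.36) and Ighv1-64 (3.76% ± 1.82). Of 95 members tested 4 rose and 30 fell, with 31.5% of all genes called, 15.5% as risen and 15.9% as fallen. Per Ighv UMI 15 rose and 23 fell. Ighv14-2 rose by 0.49 ± 0.10 (adjusted p = 0.00232), and Ighv10-3 had a log2 change of 0.65 ± 0.25 (adjusted p = 0.0707). Ighv1-19 fell by 1.50 on the log2 scale (± 0.22, adjusted p = 0.000226) and Ighv8-8 by 1.24 (± 0.23, adjusted p = 0.00151). The early-use gene Ighv5-2 was lower too (-1.94 ± 0.19, adjusted p = 1.14e-05), as was Ighv7-1 (-2.04 ± 0.36, adjusted p = 0.00105), both opposite in sign to transitional-like cells. That contrast rests on few cells. In marginal zone-like cells Ighv5-2 had 26, 17 and 28 UMIs in R848 and 5, 3 and 1 in IL-4+R848 sums. It had no assigned cell there and at most 4 UMIs in a cell. Ighv7-1 had 10, 37 and 5 against 0, 1 and 0 UMIs, and 1 cell held all 37 of R848 set 2.

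The Zbtb32 cluster stood apart by Ighv11-2, a gene known from B-1 cells that bind phosphatidylcholine. It was the gene of 4.13%, 6.76% and 3.41% of assigned R848 cells (10, 10 and 7 cells) and of 2.34%, 5.17% and 6.03% of IL-4+R848 cells (5, 6 and 7 cells), a mean of 4.64% ± 1.66. In follicular-like cells of the 6 sums it lay between 0 and 0.193% (11 of 11564 cells). All 6 Zbtb32 sums were above all 6 follicular-like sums, and the treatments overlapped. The cluster held 1547 cells and may be mixed. A finer clustering (Leiden resolution 2) gave a Zbtb32 cluster of 1275 cells. It also gave a B-1-like cluster of 252 cells, with S100a6 and Zbtb32 leading and 4 of 6 B-1 markers raised. How Ighv11-2 cells fell between these 2 was not examined. In summed UMIs Ighv11-2 rose by 3.92 ± 0.11 on the log2 scale (adjusted p = 1.01e-08), and per Ighv UMI by 3.39 ± 0.29 (adjusted p = 1.3e-28). In this class 7 of 91 members rose and 12 fell, with 36% of all genes called, 18.6% as risen and 17.4% as fallen, and per Ighv UMI 4 rose and 53 fell. Ighv3-6 led the cluster by share (6.10% ± 1.92) and Ighv1-53 rose by 1.20 ± 0.23 (adjusted p = 0.00191). Ighv1-53 had 9, 4 and 7 assigned cells in R848 and 5, 3 and 3 in IL-4+R848 sums. A single cell held 192 of its 282 UMIs in R848 set 2. Ighv11-2 was not confined to this cluster. Its mean share was 0.709% ± 0.58 in plasmablast-like cells, above the follicular-like share of the same sum in 4 of 6 sums. It was 0.259% in marginal zone-like, 0.274% in activated-like and 0.542% in cycling-like cells, above in 3 of 6 sums each.

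Its light chain was also shared. Of 36 Ighv11-2 cells of the Zbtb32 cluster with an assigned light chain gene, 34 (94.4%) used Igkv14-126, in 6 of 6 sums, against 4 of 764 cells with another heavy chain gene (0.524%). Among cells of that pair 27 were assigned Ighm, the IgM constant gene. In plasmablast-like cells the pair held 19 of 21 Ighv11-2 cells, all 19 assigned Ighm, and in follicular-like cells 0 of 6. In marginal zone-like and in activated-like cells it held 4 of 5 each. Germinal center-like cells had 0 of 1128 assigned to Ighv11-2, which allows a share of up to 0.266%, and its summed UMIs there were lower than in follicular-like cells (-3.06 ± 0.48, adjusted p = 0.00025).

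Ighv12-3, the other gene known for phosphatidylcholine binding, held 12 Zbtb32 cluster cells, all in R848 sums (1, 6 and 5 cells), and 0 of 446 cells in IL-4+R848 sums, which allows up to 0.673%. Its difference from follicular-like cells was 1.61 ± 0.60 (adjusted p = 0.0581) and did not pass the test. All 4 of its cells with a light chain gene used Igkv4-91.

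Activated-like cells were led by the same Ighv1-81 and Ighv9-3 (5.04% ± 1.23) as follicular-like cells. Of 92 members 1 rose and 36 fell, with 43.6% of all genes called, 21.9% as risen and 21.7% as fallen, and per Ighv UMI 7 rose and 18 fell. Cycling-like cells were led by Ighv1-26 (4.61% ± 2.03) and Ighv3-6 (4.36% ± 1.64). There 0 of 88 members rose and 23 fell in edgeR's test, with 54.8% of all genes called, 27.3% as risen and 27.5% as fallen, so that the fallen members were near the share of all genes. Per Ighv UMI 5 rose and 46 fell. DESeq2 called 0 as risen and 33 as fallen in cycling-like cells, and 28 had an unadjusted p under 0.05 in edgeR.

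Against follicular-like cells, germinal center-like cells had 1 member risen and 38 fallen of 93 tested, where 75.9% of all genes were called, 36.4% as risen and 39.5% as fallen. The fallen members were near the share of all genes. They were led by Ighv1-26 (5.27% ± 1.40). Ighv6-6 fell by 2.09 (± 0.41, adjusted p = 0.00106), with 2, 1 and 2 assigned cells in R848 and 0 of 273 in IL-4+R848 sums, which allows up to 1.10%. Ighv8-12 fell by 1.30 (± 0.24, adjusted p = 0.000744) and Ighv4-1 by 1.60 (± 0.48, adjusted p = 0.0118, and 0.0697 without set 1). Ighv7-3 had a larger share of germinal center-like than of follicular-like cells in 6 of 6 sums (1.15% ± 0.46 against 0.707%). This share came from only 5, 2 and 1 assigned cells in R848 and 2, 1 and 1 in IL-4+R848 sums. The summed UMIs of Ighv7-3 were lower (-0.79 ± 0.23, adjusted p = 0.0113, and 0.0691 without set 2). Ighv1-72, known from the response to the hapten NP, had a log2 change of -0.52 ± 0.24 (adjusted p = 0.0706). The median depth was 14120 UMIs per cell in germinal center-like and 5141 in follicular-like cells, and the part of this depth gap in the lower levels was not tested.

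Dominance by single genes was limited when cells were counted by the assignment rule. The probability that 2 cells of a sum share their Ighv gene was turned into an effective number of genes, its reciprocal: the number of equally used genes that would match as often. It was 43.0 ± 2.68 in follicular-like, 44.7 ± 4.55 in plasmablast-like and 44.6 ± 11.1 in germinal center-like cells (SD, n = 6). Plasmablast-like sums lay between 39.5 and 51.1 and germinal center-like sums between 30.9 and 61.9, overlapping the follicular-like range of 40.0 to 47.1. The match was higher than in follicular-like cells of the same sum in 2 of 6 plasmablast-like and 3 of 6 germinal center-like sums. Counted by share of Ighv UMIs instead of cells, the match was higher than in follicular-like cells in both classes. With at least 10 Ighv UMIs per cell it was lower in plasmablast-like cells. These values are given in the last section.

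**Figure D3:**
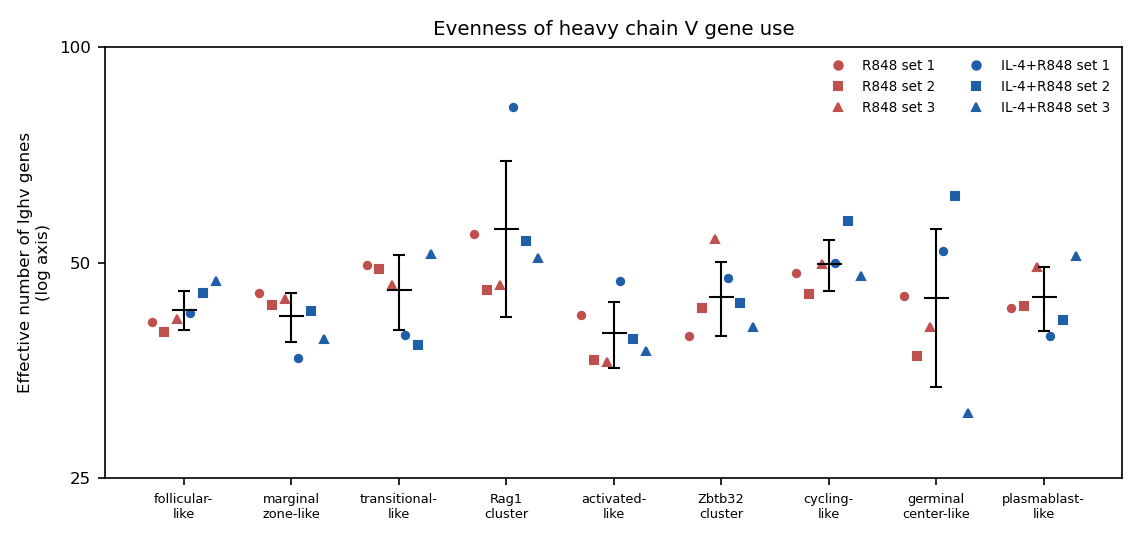
Effective number of Ighv genes (vertical log axis) in the 9 B cell classes. Points are the 6 sums, coloured by treatment and shaped by set, and black bars are mean ± SD. Plasmablast-like sums (39.5 to 51.1) lie within or beside the follicular-like range, germinal center-like sums spread more widely (30.9 to 61.9), and the Rag1 cluster holds 1 sum of 39 assigned cells at 82.3.

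The 5 most used genes held 19.3% to 26.5% of plasmablast-like, 23.2% to 35.8% of germinal center-like and 20.9% to 26.1% of follicular-like cells. The single most used gene held 4.58% to 10.0% in plasmablast-like sums and 5.71% to 11.1% in germinal center-like sums. Cells of the same sum matched 1.17 times as often as cells of different sums in germinal center-like cells, 1.06 times in plasmablast-like and 1.02 times in follicular-like cells. A ratio of 1 means that sums were as alike as cells of 1 sum.

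An expanded gene was one with at least 5 cells, at least 5% of the assigned cells of its sum and at least 3 times its follicular-like share in the same sum. Only 4 cases met this rule, in 4 of 12 sums. With at least 10 Ighv UMIs per cell the summed share of expanded genes in plasmablast-like cells was larger, as given in the last section. The germinal center-like cases were Ighv9-2 in R848 set 2 (23 of 265 cells, 8.68%, 95% exact interval 5.58% to 12.7%), Ighv5-17 in R848 set 3 (16 of 233, 6.87%, 3.98% to 10.9%) and Ighv1-47 in IL-4+R848 set 3 (9 of 81, 11.1%, 5.21% to 20.0%). The plasmablast-like case was Ighv9-2 in R848 set 2 (37 of 496, 7.46%, 5.31% to 10.1%). Follicular-like shares in the same sums were 0.830% for Ighv9-2, 2.22% for Ighv5-17 and 0.157% for Ighv1-47. In no other germinal center-like sum did these genes pass 2.52%, and Ighv9-2 in other plasmablast-like sums reached at most 1.66%. These shares chose the genes and are given as a description. The intervals cover counting error only.

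The Ighv9-2 cells of R848 set 2 shared isotype as well as V gene. Of 34 such plasmablast-like cells with an assigned constant gene 32 were Ighg2b (IgG2b), and of 14 germinal center-like cells 11 were. Among all Ighg2b plasmablast-like cells of that sum, Ighv9-2 was the gene of 32 of 71 (45.1%), and the effective number of genes was 4.84. In Ighg2b cells of R848 set 3 it was 44.8, and in Ighm cells of R848 set 2 it was 44.4. The Ighg2b cells of set 1 were also concentrated, at 18.1 effective genes in R848 and 19.3 in IL-4+R848, with Ighv1-26 leading in both (16.7% and 17.1%). This was not particular to Ighg2b. In R848 set 1 the 47 Ighg3 cells were at 21.2, led by Ighv3-6 (17.0%), and the 51 Ighg1 cells at 29.0. Ighm and Ighg2c cells of that sum were at 43.0 and 49.0.

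Most of these Ighv9-2 cells carried 1 of 2 light chain genes, those whose share of cells exceeded that of the other cells of the sum most. With at least 3 UMIs as the rule, 26 plasmablast-like cells held Igkv2-137 and 11 held Igkv6-32, and none held both or neither. Among the 23 germinal center-like cells 4 held Igkv2-137, 17 held Igkv6-32, 2 held neither and none held both. In the other cells of those sums 10 of 242 germinal center-like and 20 of 459 plasmablast-like cells held either gene. The 17 and 11 Igkv6-32 cells also held Igkv6-25, and Igkv6-25 had the more UMIs. There were 3050 UMIs of Igkv6-25 and 1600 of Igkv6-32 in the germinal center-like cells, and 35301 and 11502 in the plasmablast-like cells. Under the 80% rule a light chain gene was assigned in 2 of the 23 germinal center-like cells and in 29 of the 37 plasmablast-like cells. In the latter it was Igkv2-137 in 24 and Igkv6-25 in 5 cells. The transcripts of Igkv6-25 and Igkv6-32 were 80.3% identical.

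The Ighv5-17 cells of R848 set 3 shared a lambda chain. Iglv1 was assigned in 9 of the 15 germinal center-like cells with a light chain gene, out of 10 such assignments among all 181 paired cells of that class and sum, and the same pair was seen in 5 plasmablast-like cells of that sum and in 1 of 1535 follicular-like cells. The Ighv1-47 cells of IL-4+R848 set 3 carried 2 light chain genes at once. Both Igkv16-104 and Igkv1-135 had at least 3 UMIs in 8 of 9 germinal center-like and 4 of 5 plasmablast-like cells, against 0 of 72 and 1 of 235 other cells of those sums. The 2 genes were picked from these data, so the contrast with other cells is a description. The transcripts of that pair were 60.2% identical.

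Pairs of heavy and light V genes were then compared over all cells with both assigned. They are not clones, since the joint sequence CDR3 was not analysed here. The probability that 2 cells of a sum shared the pair was divided by the product of the heavy and the light match, which gives 1 when both are drawn independently. It was 1.10 ± 0.10 in follicular-like, 1.32 ± 0.46 in marginal zone-like and 1.24 ± 0.38 in transitional-like cells. In activated-like cells it was 0.93 ± 0.46 (0 to 1.23). In cycling-like cells, with 38 to 117 paired cells per sum, it was 1.61 ± 1.17 (0 to 3.35). The Rag1 cluster had only 10 to 28 paired cells per sum. In plasmablast-like cells it was 3.98, 7.60 and 2.15 in the R848 sums and 2.88, 1.59 and 3.11 in the IL-4+R848 sums, a mean of 3.55 ± 2.15, above follicular-like in 6 of 6 sums. Without the commonest pair of each sum, an alternative added after seeing the data, the mean was 2.31 ± 0.78 and still above 1 in 6 of 6 sums.

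**Figure D4:**
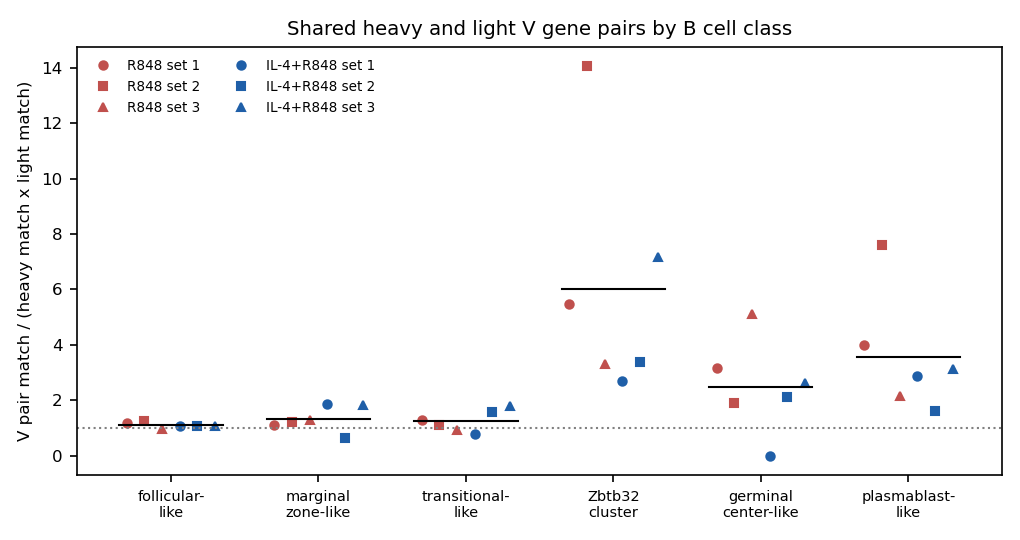
Match of heavy and light V gene pairs divided by the product of the heavy and the light match (vertical axis) in 6 classes. Activated-like cells, cycling-like cells and the Rag1 cluster are not drawn. Points are the 6 sums, coloured by treatment and shaped by set, black lines are means and the dotted line marks 1. Plasmablast-like sums lie between 1.59 and 7.60 and the Zbtb32 cluster reaches 14.1 in R848 set 2, while follicular-like sums lie between 0.968 and 1.25.

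The Zbtb32 cluster had a ratio of 6.01 ± 4.28 (2.71 to 14.1), and 2.47 ± 0.86 without the commonest pair of each sum. Only 1 pair, Ighv11-2 with Igkv14-126, held at least 5 of its cells in a sum, in 4 sums. Germinal center-like cells had 2.49 ± 1.68, from 0 in IL-4+R848 set 1 to 5.12 in R848 set 3, where 47 to 268 cells per sum were paired. Without the commonest pair the mean was 1.33 ± 1.13.

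Among 2614 paired plasmablast-like cells 18 pairs held at least 5 cells in a sum, and 3 did among 805 paired germinal center-like cells. By sum, plasmablast-like cells had 7, 2 and 8 such pairs in R848 and 2, 0 and 1 in IL-4+R848, from 165 to 810 paired cells. Follicular-like cells had 9, 1 and 8, then 15, 6 and 19, from 545 to 1892 paired cells. Pairs of 5 cells or more were thus not particular to plasmablast-like cells. Ighv1-26 with Igkv4-74 held 11 plasmablast-like and 6 germinal center-like cells in R848 set 1, and 6 plasmablast-like cells in IL-4+R848 set 1. The latter come from mice of the other treatment, read in the same library, and a part of hashtag error in this was not tested. Ighv1-53 with Igkv3-2 and Ighv3-6 with Igkv3-12 also held 11 plasmablast-like cells each in R848 set 1. Ighv1-39 with Igkv2-137 held 8 in IL-4+R848 set 1 and none in any other sum. Of the 18 pairs, 15 were seen in at least 1 plasmablast-like cell of another sum.

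Germinal center-like and plasmablast-like cells of the same sum mostly shared pairs more often than those of different sums. The match between the classes was 1.61, 1.08 and 1.07 per 1000 comparisons within the R848 sums and 0.269, 0.774 and 1.10 within the IL-4+R848 sums. Against the plasmablast-like cells of the other 5 sums it was 0.669, 0.638, 0.473, 0.418, 0.550 and 0.358. Thus 5 of 6 sums were higher within than between, all except IL-4+R848 set 1. For plasmablast-like against Zbtb32 cluster cells the means were 1.25 within and 0.869 between sums, also higher within in 5 of 6 sums. For germinal center-like against Zbtb32 cluster cells they were 0.633 and 0.462, higher within in 3 of 6 sums. For plasmablast-like against follicular-like cells they were 0.442 and 0.452.

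IL-4 was compared with R848 alone within each class by edgeR's quasi-likelihood test on the 6 sums. In follicular-like cells 8 of 109 members tested rose and 6 fell, where 17.1% of all 11145 genes were called, 8.81% as risen and 8.34% as fallen. The members' share of 12.8% was below that of all genes. Without set 1, 10 rose and 1 fell, and without set 2, 7 rose and 3 fell. The median log2 change was 0.02 over the members and -0.00 over all genes. Of the other antibody genes, 7 of the 163 light chain V genes (Igkv and Iglv) rose and 4 fell, though not all passed the filter on low counts. Of the heavy chain constant genes 0 of 7 rose and 2 fell, of the light chain constant genes 1 of 4 rose, and of 7 antibody secretion genes tested 3 rose and 2 fell.

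Ighv2-3, Ighv6-6 and Ighv1-20 rose with IL-4 and Ighv1-12 fell, and these 4 calls held without each set. The level of Ighv6-6 was 24.2, 22.7 and 26.0 CPM (edgeR's CPM scale, the UMIs of a gene scaled to the TMM-normalised gene UMIs of the summed cells) in the R848 sums and 38.6, 31.0 and 35.5 in the IL-4+R848 sums. The groups did not overlap, and it rose by 0.51 ± 0.09 on the log2 scale (adjusted p = 0.0035). Its assigned cells numbered 22, 11 and 21 with R848, and 38, 30 and 43 with IL-4 added. Ighv2-3 rose from 30.4, 29.1 and 33.4 to 56.5, 55.6 and 41.4 CPM (0.71 ± 0.11, adjusted p = 0.00158). Ighv1-20 rose from 3.31, 3.93 and 2.90 to 6.63, 8.05 and 10.7 CPM (1.30 ± 0.20, adjusted p = 0.00131), a low level carried by 38, 45 and 37 against 131, 175 and 190 UMIs. Ighv1-12 fell from 23.1, 19.5 and 20.1 to 13.9, 12.3 and 12.5 CPM (-0.71 ± 0.09, adjusted p = 0.000426), with groups that did not overlap.

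**Figure D5:**
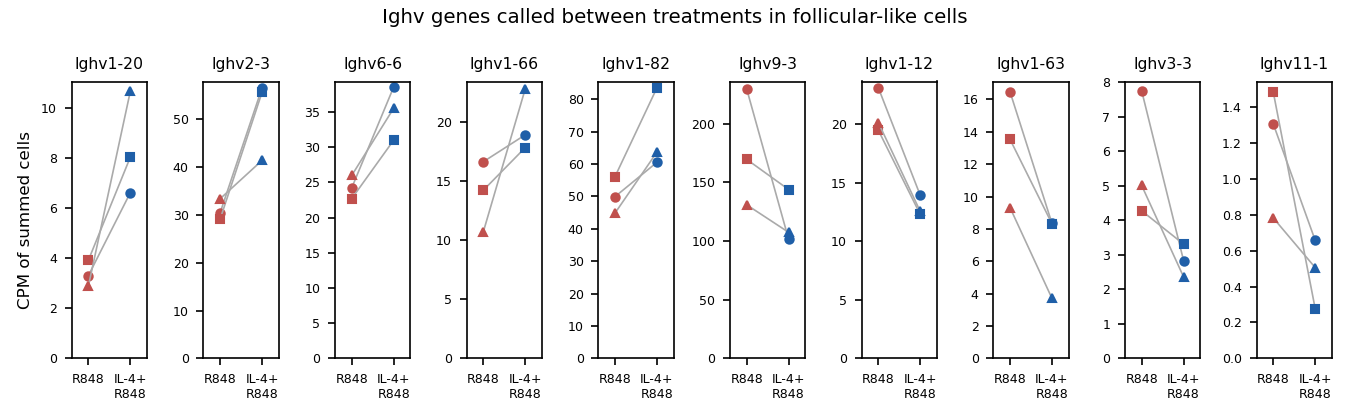
Level in CPM of summed follicular-like cells (vertical axes from 0, one scale per gene) of 10 Ighv genes called between R848 and IL-4+R848. Points are sets (circle, square and triangle for sets 1, 2 and 3) and grey lines join the 2 sums of a set. Ighv6-6 goes from 22.7 to 26.0 CPM to 31.0 to 38.6 CPM, while Ighv9-3 overlaps between treatments.

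The other called members named by the rule lost their call without at least 1 set. Ighv1-82 rose from 49.9, 56.2 and 44.9 to 60.6, 83.6 and 63.7 CPM (0.45 ± 0.12, adjusted p = 0.0288, and 0.0567 without set 1 and 0.0979 without set 3). Ighv1-66 rose by 0.50 ± 0.15 (adjusted p = 0.04, and 0.0928 without set 2 and 0.241 without set 3). Ighv3-3 fell by 1.01 (± 0.23, adjusted p = 0.0122, and 0.0956 without set 1 and 0.0553 without set 3). Ighv1-63 fell by 0.94 (± 0.27, adjusted p = 0.0374, and 0.136 without set 1 and 0.101 without set 2). Ighv11-1 had 15, 17 and 10 UMIs against 13, 6 and 9 and no assigned cell (adjusted p = 0.0418, and 0.102, 0.319 and 0.0558 without set 1, 2 or 3). Ighv9-3 had 230, 170 and 131 CPM against 102, 144 and 107.4 (-0.60 ± 0.18, adjusted p = 0.0435). The groups of Ighv9-3 overlapped, a single cell held 1011 of the 2634 UMIs of R848 set 1, and without that set the change was -0.27 with an adjusted p of 0.334.

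By family, family 9 took 7.17% ± 0.81 of R848 and 5.39% ± 0.88 of IL-4+R848 follicular-like cells, lower in 3 of 3 sets. Family 6 took 3.01% ± 0.68 and 4.0% ± 0.35, higher in 2 of 3 sets.

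In plasmablast-like cells edgeR called 0 of 108 members and 0 of all 10284 genes (0%) between treatments, with 14 members at an unadjusted p under 0.05. DESeq2 called 4 members, all lower with IL-4. Family 1 took 56.2% ± 2.05 of R848 and 61.8% ± 1.58 of IL-4+R848 plasmablast-like cells, higher in 3 of 3 sets, with no overlap. Family 9 took 7.56% ± 3.87 and 3.89% ± 0.56, lower in 3 of 3 sets, with Ighv9-2 of R848 set 2 in the former. The difference was -1.50 percentage points without set 2. The lowest R848 sum was at 4.454% and the highest IL-4+R848 sum at 4.450%. In germinal center-like cells 1 of 70 members was called, where 0.297% of all genes were. This was Ighv1-12, with 63, 91 and 47 UMIs against 8, 2 and 0 (adjusted p = 0.0404). Single cells held 46, 69 and 44 of these UMIs. The call was lost without any 1 set (adjusted p = 0.0625, 0.298 and 0.131), and 5 members were called when the set was a block.

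The effective number of genes overlapped between treatments in plasmablast-like (45.4 ± 3.46 in R848, 44.1 ± 6.20 in IL-4+R848) and germinal center-like cells (40.9 ± 3.94 and 48.3 ± 15.9). In follicular-like cells it was 41.0 ± 0.89 and 45.0 ± 2.34, higher with IL-4 in 3 of 3 sets. In marginal zone-like cells it was 44.5 ± 0.86 and 39.6 ± 3.01, lower in 3 of 3 sets, with 106 to 126 assigned cells per IL-4+R848 sum.

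In the remaining classes few members were called and few cells stood behind each. The counts were 3 of 73 in marginal zone-like cells (1.13% of all genes called), 4 of 80 in transitional-like (1.26%), 4 of 71 in activated-like (1.54%), 2 of 65 in the Zbtb32 cluster (2.04%) and 4 of 61 in cycling-like cells (1.29%). Blocking on the set gave 5, 8, 5, 10 and 6. In the Rag1 cluster edgeR called 0 of 48 members (0.102% of all genes), with 5 at an unadjusted p under 0.05, 0 by DESeq2 and 3 with the block.

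Both calls given next held without each set but rested on few cells. Ighv1-63 in marginal zone-like cells had 78, 47 and 56 UMIs in R848 and 0, 1 and 0 with IL-4 (adjusted p = 0.000915), from 3, 1 and 1 assigned cells. Ighv9-1 in cycling-like cells had 0, 4 and 1 against 51, 74 and 51 UMIs (adjusted p = 0.000112), of which single cells held 50, 74 and 48. In both cases at most 3 assigned cells per sum stood behind the level.

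In transitional-like cells Ighv1-82, which rose in follicular-like cells, fell from 93.4, 77.4 and 84.9 to 40.4, 31.7 and 43.5 CPM (-1.13 ± 0.17, adjusted p = 0.00297, and 0.0737 without set 2). Ighv1-76 rose from 45.3, 35.8 and 28.2 to 45.5, 126 and 69.9 CPM (1.25 ± 0.27, adjusted p = 0.0416, and 0.555 without set 2 and 0.192 without set 3). In activated-like cells Ighv5-9-1 rose from 16.5, 26.6 and 11 to 86.2, 83.9 and 45.1 CPM (2.01 ± 0.29, adjusted p = 0.00386, and 0.178 without set 1). In marginal zone-like cells Ighv7-3 rose from 32.8, 9.86 and 13.2 to 57.3, 137 and 45.7 CPM (2.08 ± 0.42, adjusted p = 0.0286, and 0.342 without set 2 and 0.1 without set 3). All 4 had groups that did not overlap, and each lost its call without at least 1 set.

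In the Zbtb32 cluster Ighv9-3 fell with IL-4, from 517, 127 and 420 to 89.8, 98.9 and 58.0 CPM (-2.10 ± 0.42, adjusted p = 0.03), and its adjusted p was 0.0901 when the set was a block. Assigned cells were 16, 7 and 11 against 6, 3 and 2, and single cells held 467 of the 1227 and 536 of the 868 UMIs of R848 sets 1 and 3. Without set 1 its adjusted p was 0.176 and without set 3 it was 0.281. The fall was not particular to Ighv9-3. In that cluster the median log2 change with IL-4 was -0.83 over the 65 members tested and -0.86 over the light chain V genes. Over all genes it was 0.0002. Of 4 light chain constant genes 3 fell, while the median of the heavy chain constant genes was 0.01. The share of cells of family 9, to which Ighv9-3 belongs, was lower with IL-4 in 3 of 3 sets of that cluster.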

How the data were processed

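Single-cell 5′ RNA and hashtag UMI counts of 3 libraries were used as deposited by the authors. Per the submitters' processing notes, Cell Ranger 6.0.1, Seurat 4.1.3 and mm10 were used, with no step assigned to each here. Whether reads on repeated V genes were discarded is not given in the sources used here.

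Cells were assigned to a treatment when 1 hashtag had at least 64 UMIs and at least 4 times the other. Barcodes with both hashtags (1567, 943 and 1312) were left out as doublets, which does not remove doublets within a treatment, and no doublet caller was run. Cells needed 500 genes and at most 10% mitochondrial UMIs, which left 12271, 10220 and 12611 cells. Clusters came from 2000 variable genes without immunoglobulin variable genes, 30 principal components, 15 neighbours weighted by shared neighbours and Leiden resolution 1 (scanpy 1.11.5, leidenalg 0.10.2, Python 3.11.15). Values were rounded to fixed steps before the components so that clusters repeat exactly. Class borders depend on these choices. Cycling-like clusters were named from division genes. Clusters of 160 NK cell-like and 43 T cell-like cells, and unnamed clusters, are not in the B cell classes.

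For each set, treatment and class the raw UMI counts were added up and tested with edgeR 4.0.16 (quasi-likelihood, TMM, filter on low counts, Benjamini-Hochberg adjusted p under 0.05 over all genes, R 4.3.3). IL-4+R848 was compared with R848 on 6 sums without a block. The other classes were set against follicular-like cells with each sum as a block. A call was read as "rose" or "fell". On simulated counts of 11138 genes for the follicular-like treatment comparison, 89.2% of 195 genes changed 2-fold were recovered and 1.69% of calls were false. Both treatments of a set share a library, per the labels, so sets pair the sums. Deviations from the group means correlated within sets at 0.487, 0.361 and 0.346 in follicular-like, 0.244, 0.527 and 0.526 in germinal center-like and 0.00631, 0.385 and 0.380 in plasmablast-like cells.

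Alternatives were the set as a block, DESeq2 1.42.0, no filter, other library sizes, other assignment limits, Leiden resolution 2 and leaving out each set. Exact intervals are Clopper-Pearson at 95%, and a count of 0 allows 3 counts. All 185 Ighv IDs matched GENCODE vM21.

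The members, gene lists and rules were chosen with earlier results of these data known. Permutation tests planned for match probabilities, family shares and pair ratios were therefore not used, and these are given as values. Named genes were the 3 most used of each class, the most used gene of each plasmablast-like and germinal center-like sum, expanded genes, up to 5 called genes per direction between treatments, up to 3 per direction that differed from follicular-like cells in all 6 sums, and Ighv11-2, Ighv12-3, Ighv7-1, Ighv1-72 and Ighv5-2. Not every gene that the rule names is described.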

Additional observations from a re-analysis of the deposited data

Results flagged for a closer look

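In 11 cases every set moved one way with IL-4 in 1 class and the opposite way in another. These differences between classes were not tested, and groups of 3 sets were not examined for single outlying values.

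The match probability of Ighv genes was higher with IL-4 in 3 of 3 sets of marginal zone-like cells (by 0.17 on the log2 scale) and lower in 3 of 3 sets of follicular-like cells (-0.13), a difference of 0.30. Against activated-like cells (-0.10) the difference from marginal zone-like cells was 0.27, and against the Rag1 cluster (-0.31), whose sums held 39 to 101 assigned cells, it was 0.49.

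The share of family 2 was lower with IL-4 in 3 of 3 sets of transitional-like cells (-2.45 percentage points). It was higher in follicular-like cells by 0.491, a difference of 2.94, and in germinal center-like cells by 3.82, a difference of 6.27. The share of family 6 was higher in cycling-like cells by 2.87 percentage points and lower in the Rag1 cluster (-0.903) and the Zbtb32 cluster (-1.47), differences of 3.77 and 4.34.

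The share of family 9, which has 4 members, was higher with IL-4 in activated-like cells by 1.76 percentage points. It was lower in follicular-like (-1.78), Zbtb32 cluster (-3.98), germinal center-like (-3.63) and plasmablast-like cells (-3.67). The differences from activated-like cells were 3.55, 5.75, 5.39 and 5.43 percentage points in that order. The plasmablast-like value ranged from -4.95 to -1.50 without a set, with Ighv9-2 of R848 set 2 in it. The germinal center-like value also holds Ighv9-2 of R848 set 2, where family 9 took 13.2% of cells, against 3.64% and 8.15% in R848 sets 1 and 3.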

How the results depend on the processing

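Counts of Ighv genes called between treatments depended on the fit. They are given here as edgeR's count, then with the set as a replicate block, with no filter on low counts and with library size from Ighv UMIs (the last added after seeing the data), each where it moved by over 1.5 times, and then the range without each set. Follicular-like cells had 14, and 30 with no filter (10 to 12). With the block 11 rose and 10 fell there. Marginal zone-like had 3, 5, 41 and 10 (5 without each set), transitional-like 4, 8 with the block and 31 with no filter (2 to 6), and the Rag1 cluster 0, 3, 20 and 4 (1 to 2). Activated-like had 4, 38 with no filter, 9 per Ighv UMI and 7 with DESeq2 (2 to 6), and the Zbtb32 cluster 2, 10, 38 and 38 (1 to 7). Cycling-like had 4, with 46 without the filter and 21 per Ighv UMI (4 to 5). Germinal center-like had 1, 5, 23 and 27, and 3 with DESeq2 (2 without each set). Plasmablast-like had 0, 4 with DESeq2 and 1 with no filter (0 to 2). Of 28 named calls between treatments, 26 held with the replicate block and 24 with DESeq2, but 15, 14 and 13 held without set 1, 2 or 3. Besides the genes given in the report, the block ended the call of Ighv14-4 in activated-like cells (adjusted p = 0.077), and no other named call.

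Counts against follicular-like cells were 19 in the Zbtb32 cluster (20 to 22 without a set, and 57 per Ighv UMI), 23 in cycling-like (23 to 28, and 51 per Ighv UMI) and 92 in plasmablast-like cells (82 to 91, and 44 per Ighv UMI). The summed counts of the other 5 classes stayed within 1.5 times under each alternative run, but per Ighv UMI more members rose and fewer fell in marginal zone-like, activated-like and Rag1 cluster cells, and the reverse in transitional-like cells. Of 49 named calls 6 were lost without set 1, 6 without set 2, 1 without set 3 and 3 with DESeq2. Per Ighv UMI 10 changed sign, which that library size brings about by removing the total. They were Ighv3-6 in transitional-like cells (-0.012) and, in plasmablast-like cells, Ighv9-3 (-0.29), Ighv1-69 (-0.0010), Ighv1-81 (-0.39), Ighv8-8 (-0.83), Ighv11-2 (-0.53), Ighv12-3 (-2.31), Ighv7-1 (-2.86), Ighv1-72 (-0.53) and Ighv5-2 (-3.70).

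The log2 match difference of IL-4 from R848 was -0.13 in follicular-like (-0.23 with at least 10 UMIs, -0.22 at 95%), 0.17 in marginal zone-like (0.107 to 0.243 without a set, 0.27 with 10 UMIs, 0.061 at 50%, 0.30 at 95%), 0.18 in transitional-like (0.090 to 0.339 without a set, -0.016 with 10 UMIs), -0.31 in the Rag1 cluster (-0.408 to -0.179), -0.18 in germinal center-like (-0.474 to 0.095), 0.05 in plasmablast-like (0.0058 to 0.098), -0.10 in activated-like (-0.29 with 10 UMIs), 0.04 in the Zbtb32 cluster (-0.15 to 0.19 without a set) and -0.11 in cycling-like cells (-0.192 to 0.0057 without a set, 0.040 with 10 UMIs, -0.0015 at 95%). Against follicular-like cells it was 0.03 in marginal zone-like, -0.34 in the Rag1 cluster, 0.11 in activated-like, -0.05 in the Zbtb32 cluster, -0.21 in cycling-like, -0.02 in germinal center-like and -0.05 in plasmablast-like cells. Without a set these ranged from 0.0071 to 0.061, -0.449 to -0.175, 0.040 to 0.216, -0.064 to -0.039, -0.242 to -0.185, -0.188 to 0.076 and -0.089 to 0.011, so that the last 2 changed sign. By share of Ighv UMIs, where a few cells rich in RNA can weigh more, these were 0.28, 0.30, 0.31, 1.00, 0.91, 0.88 and 0.24. Cycling-like cells were at -0.41 with 10 UMIs and -0.045 at 95%, and plasmablast-like at -0.35 with 10 UMIs. At Leiden resolution 2 the values lay between -0.31 and 0.18, each within the spread of sums. The cause was not tested.

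The summed share of expanded genes in plasmablast-like cells was 1.24% (0 to 1.86% without a set, 0 being without set 2) and 7.39% with at least 10 UMIs. Igkv2-137 went from 82.8% of Ighv9-2 plasmablast-like cells to 100% at 95% of light chain UMIs. Relative to follicular-like cells, with at least 10 UMIs, family 1 went from -8.40 to -14.4 percentage points in transitional-like, from -6.32 to -4.13 in the Zbtb32 cluster and from 5.30 to 12.6 in plasmablast-like cells, and family 6 from 5.41 to 7.84 in transitional-like cells. Between treatments family 6 of follicular-like cells was at 0.994 and ranged from 0.617 to 1.57 without a set. The pair ratio of follicular-like cells was 0.869 at 95% of UMIs. Few cells per sum limit the Rag1 cluster and the IL-4+R848 germinal center-like values.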
